A study of Mus musculus with 12 samples.

Results

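The genes described here encode very large E3 ubiquitin ligases: Ubr4, Huwe1, Herc1, Herc2, Birc6, Mycbp2 and Trip12. They were taken as all rows under these 7 names in the authors' deposited table of exon parts, which are stretches of a gene counted as units. There were 397 such parts of 138745 in the table, under 6 of the 7 names. No part under the name Trip12 was analysed here. The set was chosen by the authors' adjusted p-values, because Ubr4 and Huwe1 had many changed parts, so the fold changes and counts of changed parts below are a description and no test of the set.

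The series used V6.5 mouse embryonic stem cells of C57Bl/6-129 background in which the endogenous Cdk13 gene was knocked out (Cdk13-/-) and complemented by a doxycycline-inducible, Flag- and HA-tagged Cdk13 transgene (Cdk13 Tg+). Cdk13 encodes a cyclin K-dependent kinase of the RNA polymerase II tail. Polyadenylated RNA was sequenced from cells taken off doxycycline for 48 h (4 libraries), taken off it for 72 h (4 libraries) or kept in it (4 libraries), each from the 2 clones c11-8 and c14-1 with 2 libraries per clone and condition. All 12 libraries carried the knockout and the transgene, so that loss of Cdk13 and removal of the drug cannot be told apart. The RNA integrity number averaged 9.05 ± 0.17 at 48 h, 9.05 ± 0.17 at 72 h and 9.10 ± 0.14 in doxycycline (SD, n = 4 each). Values per library, and with them the depth and the spread between replicates, are not used here. Both times were compared with the same doxycycline libraries. Of 8 embryonic stem cell markers, 6 had a tested part at 48 h (Pou5f1, Nanog, Zfp42, Klf4, Dppa5a and Tdgf1), against 0 of 3 primitive endoderm markers, 0 of 4 mesoderm and neural markers and 1 of 3 fibroblast markers (Thy1). At 72 h a part was tested in 6 of 8 embryonic stem cell, 2 of 3 primitive endoderm, 3 of 4 mesoderm and neural and 3 of 3 fibroblast markers, so that whether a part was tested did not tell these cell types apart at that time. The table holds no expression levels, and the labelled cell type was not checked further.

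An E3 ligase is the last enzyme of a relay in which an E1 enzyme activates ubiquitin and an E2 enzyme carries it, and the E3 picks the protein that receives it. Ligases with a HECT domain, which include Huwe1, Herc1, Herc2 and Trip12, take the ubiquitin onto a cysteine of their own before passing it on. Ubr4 binds destabilising residues at the start of proteins (N-degrons), Mycbp2 is a RING-type ligase known from axon growth, and Birc6 joins an inhibitor-of-apoptosis repeat to an E2 domain. Huwe1 is known for ubiquitinating Mcl1, Trp53 and Myc family proteins, and Herc2 for its part in the response to DNA breaks. Their transcripts have many exons: those of Ubr4, Huwe1, Herc1, Herc2 and Mycbp2 that best matched the parts have 106, 83, 78, 93 and 85 exons in GENCODE M21.

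Fold changes below are the authors' log2 ratio of cells taken off doxycycline over cells kept in it. The authors' tool, DEXSeq, sets each part against the other parts of its gene, so a positive value is read as higher relative use of a part and not as more RNA of the gene. A part is called higher or lower at the authors' adjusted p below 0.05. A part with no adjusted p counts as not tested. At 72 h, 368 of the 397 parts were tested and 25 were called, 13 higher and 12 lower, which is 6.79% of the tested parts against a background of 3.6% of all tested parts in the table (2.33% higher and 1.28% lower). At 48 h, 177 parts were tested and 1 was called, in the higher direction (0.565%), against a background of 1.62% (0.964% higher and 0.633% lower). By the authors' classes, unclassified parts, which the file header also calls internal constitutive exons, made 22 of the calls at 72 h (of 334 tested; background 2.47%) and the call at 48 h (of 170 tested; background 1.1%). Terminal exons made 1 call of 4 tested at 72 h (background 8.83%) and none of 3 at 48 h (3.31%). First exons made none of 2 at 72 h (5.96%). Cassette exons made 1 of 13 at 72 h (2.36%) and none of 3 at 48 h (1.13%), and detained introns 1 of 9 at 72 h (15.3%). All 25 calls at 72 h lay under 2 names, 13 under Ubr4 and 12 under Huwe1. Of the 13, 1 (E004) lay in a stretch that matched another gene, Emc1, as described below. Without that stretch there were 24 calls among 342 tested parts (7.02%). The other 170 tested parts, of Herc1, Herc2 and Mycbp2, gave no call.

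Part of the rows under the name Ubr4 match exons of another gene. Parts were matched to annotated exons by width and order alone, because the table is on mm9 and the annotation on GRCm38. The first 26 of the 135 parts under that name preceded the first match to a Ubr4 exon, and 20 of these 26 matched exons of Emc1 in order, out of 23 exons of transcript Emc1-201. The next best gene in the annotation, Dst, matched 9 parts. Emc1, which encodes a subunit of the endoplasmic reticulum membrane protein complex, is the protein-coding gene listed before Ubr4 on chromosome 4 in the RefSeq table of GRCm38.p6, and the table has no rows under the name Emc1. These 26 parts (E001 to E027, chromosome 4, 138908509 to 138931023) are called the Emc1 end below. The other 109 parts (E029 to E160, chromosome 4, 138944283 to 139045455, plus strand) are called Ubr4's own parts, and 85 of them matched exons of Ubr4-201. The authors' values under this name were made with all 135 parts as 1 gene.

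Of the 25 called parts, 4 exons of Ubr4 and Huwe1 are printed here as examples of higher and lower parts, from GENCODE M21 transcript sequences, 5′ to 3′ on the plus strand. They are the higher Ubr4 part of lowest adjusted p (E031, exon 4 of Ubr4-201), the Ubr4 part of largest rise (E084, exon 2 of the coding transcript Ubr4-202, matched by its width and that of the exon before it), the whole Ubr4 exon of largest fall (E154, exon 104 of Ubr4-201), and the lower Huwe1 exon of lowest adjusted p (E129, exon 79 of Huwe1-201). They were picked after their values were seen. All 4 are coding exons in the annotation. Capitals mark the last 3 bases, which are the exonic end of the 5′ splice site.
Ubr4 E031: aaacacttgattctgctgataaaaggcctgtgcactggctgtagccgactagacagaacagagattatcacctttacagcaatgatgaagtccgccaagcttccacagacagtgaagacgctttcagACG
Ubr4 E084: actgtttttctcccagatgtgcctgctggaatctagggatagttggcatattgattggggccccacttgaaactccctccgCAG
Ubr4 E154: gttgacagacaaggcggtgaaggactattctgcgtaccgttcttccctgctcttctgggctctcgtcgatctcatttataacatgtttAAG
Huwe1 E129: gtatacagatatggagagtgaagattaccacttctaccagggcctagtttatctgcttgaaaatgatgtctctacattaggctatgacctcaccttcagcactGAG
These 4 exons have 130, 84, 91 and 106 bases in the order printed, and a GC content of 42.5% to 51.2%, which describes these 4 and not the other called parts.

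Ubr4 changed at both ends of its own parts at 72 h, higher at the 5′ end and lower at the 3′ end. Of its 101 tested own parts, 4 were higher and 8 lower, which is 11.9% in all. Exons 2, 3 and 4 (E029, E030 and E031) stood at 0.21, 0.21 and 0.24 in the authors' deposited table (adjusted p = 0.038, 0.0061 and 7.2e-04). They are 3 neighbouring coding exons and the 5′-most own parts in the table. E031 (chromosome 4, 138947700 to 138947829) was tested at 48 h as well, and stood there at 0.20 (adjusted p = 0.15) in the authors' deposited table. E029 and E030 had no adjusted p at 48 h.

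The lower Ubr4 parts were the terminal exon and 7 parts near it. Exons 94 and 95 (E142 and E143, 120 and 191 bases) stood at -0.10 and -0.098 (adjusted p = 0.0010 and 8.3e-04) in the authors' deposited table. Exon 98 (E146) stood at -0.10 (adjusted p = 0.049) in the authors' deposited table. Toward the 3′ end the values were more negative: exons 102, 103 and 104 (E151, E153 and E154) stood at -0.13, -0.13 and -0.16 (adjusted p = 0.0019, 0.027 and 0.0016) in the authors' deposited table. The lowest adjusted p of the gene, 1.7e-04, belonged to E156, a part of only 3 bases (chromosome 4, 139041900 to 139041902) at -0.18 in the authors' deposited table. The terminal exon E160 (chromosome 4, 139045082 to 139045455) stood at -0.15 (adjusted p = 0.028) in the authors' deposited table. At 48 h these 8 parts had values between -0.02 and -0.15 in the authors' deposited table and none was called.

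Between the ends, 1 own part stood out. E084 (84 bases, chromosome 4, 138991864 to 138991947) was higher by 0.45 at 72 h (adjusted p = 0.0060) in the authors' deposited table. The part before E084, E083, stood at -0.01 and the part after it, E085 (3 bases), at 0.01 in the authors' deposited table, and neither was called. The cassette exon E159 stood at 0.13 at 72 h (adjusted p = 0.83) in the authors' deposited table. The only call of Ubr4 at 48 h, and of all 7 genes, was E107 (exon 66, 228 bases, chromosome 4, 139006230 to 139006457), at 0.09 (adjusted p = 0.048) in the authors' deposited table. At 72 h E107 stood at 0.08 in the DEXSeq comparison for that time (adjusted p = 0.076) of the authors' deposited table.

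Leaving out introns and the cassette exon, the first 48 of 98 own Ubr4 parts with a value at 72 h, E029 to E082, were all above 0, and the last 16, E139 to E160, were all below 0 with a median of -0.10. At 48 h the first 36 of 88 such parts (E031 to E075) were above 0 and the last 12 (E142 to E160) below 0, with a median of -0.06. In 5 bins of about equal numbers of tested own parts from the 5′ end, the median log2 fold change at 72 h was 0.13, 0.09, 0.02, -0.03 and -0.09, and at 48 h it was 0.08, 0.05, 0.03, -0.02 and -0.05. Values of neighbouring parts are not independent, since a read can span both and all are relative to the same gene.

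**Figure D1:**
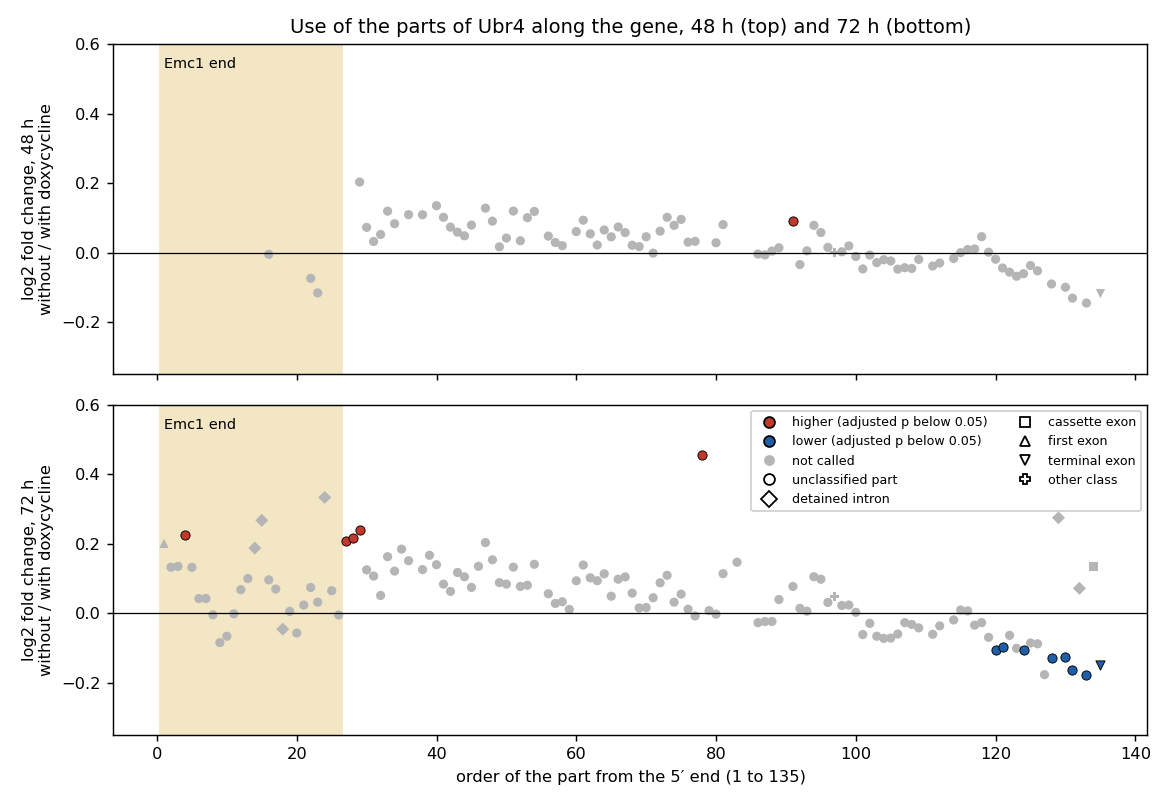
Log2 fold change (without over with doxycycline, authors' values) of each tested part under the name Ubr4 in order from the 5′ end, at 48 h (top) and 72 h (bottom); each point is 1 part, its shape gives the class, red and blue mark parts called higher and lower, and the shaded first 26 parts are the Emc1 end. At 72 h the 5′-most own parts stand at 0.21 to 0.24 and the terminal exon at -0.15, with E084 at 0.45 above its neighbours.

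The Emc1 end had its own, smaller set of values. All 26 parts were tested at 72 h and 1 was called: E004, exon 4 of Emc1-201 (94 bases, chromosome 4, 138911007 to 138911100), at 0.23 (adjusted p = 0.0053) in the authors' deposited table. The first exon E001 stood at 0.20 (adjusted p = 0.056) in the authors' deposited table. The median over the 26 parts was 0.07 at 72 h (19 above 0 and 7 below), next to 0.04 over the 101 own parts of Ubr4. The part classed as first exon under this name lies in the Emc1 end, and none is classed so among Ubr4's own parts.

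Huwe1 had 8 higher and 4 lower parts of 71 tested at 72 h, and none of 61 at 48 h. Huwe1 lies on the plus strand of chromosome X (148235351 to 148369971). Its cassette exon E025 had the lowest adjusted p of all 7 genes, 1.3e-06, at 0.25 in the authors' deposited table. The exons listed beside it, E024 and E026, stood at 0.12 and 0.15 (adjusted p = 0.24 and 0.069) in the authors' deposited table. At 48 h E025 stood at 0.09 (adjusted p = 0.55) in the authors' deposited table. It was the only cassette exon of the 7 genes to be called. The other 3 tested Huwe1 cassette exons, E018, E023 and E052, stood at 0.06, 0.18 and -0.01 at 72 h in the authors' deposited table.

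The unclassified Huwe1 parts called higher at 72 h lay between E006, near the 5′ end, and E070, past the middle of the part order. Other unclassified parts in this stretch were not called, and some of them stood below 0. E006, 132 bases near the 5′ end, stood at 0.34 (adjusted p = 0.0091), and exon 40 (E057, 160 bases) at 0.09 (adjusted p = 0.0015), in the authors' deposited table. The other 4, E048, E058, E067 and E070, lay between 0.06 and 0.11, with adjusted p between 0.011 and 0.046 in the authors' deposited table. Exons 78 to 81 (E128, E129, E130 and E131), which lie together near the 3′ end, were all lower, at -0.10, -0.11, -0.16 and -0.14 in the authors' deposited table. Their adjusted p in that table was 0.015, 2.0e-04, 0.0012 and 0.0027. At 48 h they stood at -0.06, -0.09, -0.09 and -0.09 and were not called in the authors' deposited table. The first exon was not tested. The terminal exon E136 stood at -0.29 at 72 h (adjusted p = 0.32), and the 5′-most tested part E003 at -0.06 (adjusted p = 0.94), in the authors' deposited table.

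Leaving out introns and cassette exons, the last 16 of 65 Huwe1 parts with a value at 72 h (E078 to E136) were below 0, with a median of -0.07. No unbroken run above 0 began at the 5′ end, since the 5′-most tested part E003 was itself below 0. In 5 such bins the Huwe1 median at 72 h was 0.14, 0.09, 0.08, 0.02 and -0.08, and at 48 h it was 0.05, 0.04, 0.04, 0.01 and -0.06. Of the 8 higher parts, 3 lay before the middle of the gene's part order and 5 after it, while all 4 lower parts lay after it.

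**Figure D2:**
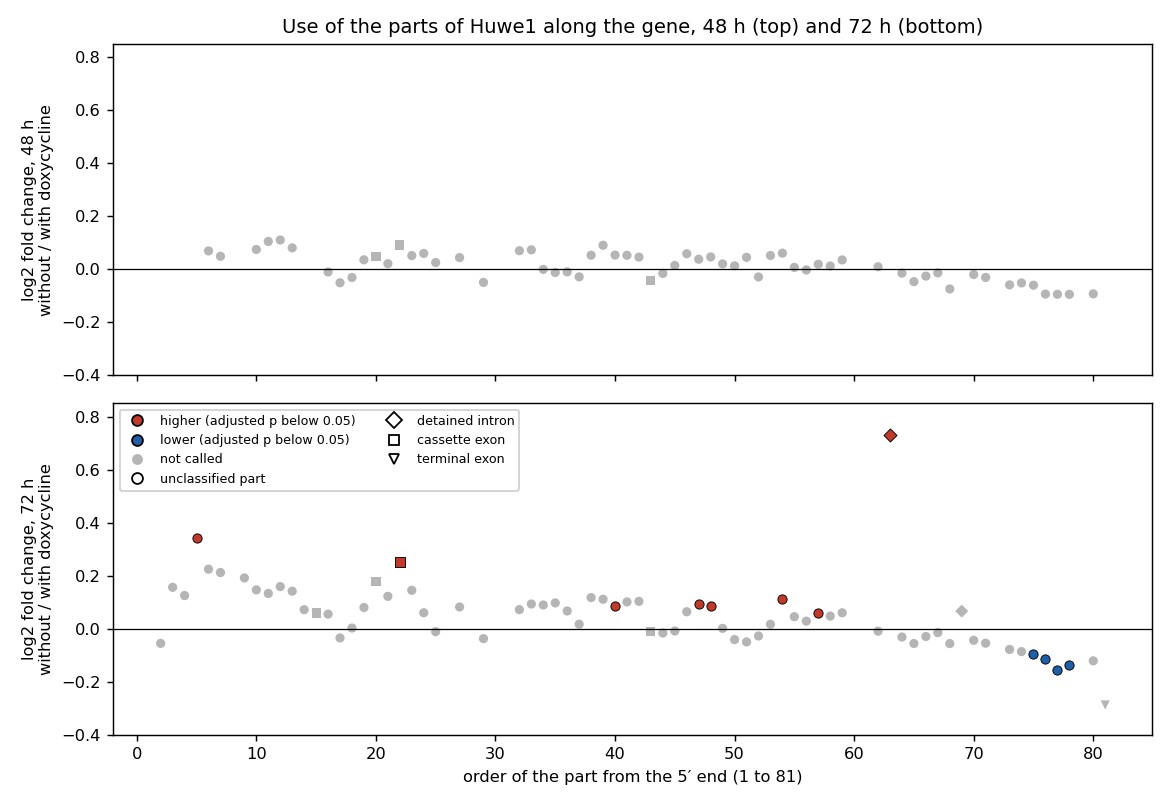
Log2 fold change (without over with doxycycline, authors' values) of each tested Huwe1 part in order from the 5′ end, at 48 h (top) and 72 h (bottom); each point is 1 part, its shape gives the class, and red and blue mark parts called higher and lower. At 72 h the detained intron E080 stands at 0.73 and 4 neighbouring exons near the 3′ end are lower, at -0.10 to -0.16.

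A detained intron is one kept in otherwise spliced, polyadenylated RNA. The 7 genes had 10 such parts, 9 of them tested at 72 h and none at 48 h, and 1 was called, against 15.3% of detained introns in the whole table. The called one was Huwe1 E080 (1282 bases, chromosome X, 148341988 to 148343269), at 0.73 (adjusted p = 1.3e-04) in the authors' deposited table, the largest value of any tested part of these genes. The nearest listed parts, E078 and E111, stood at -0.01 and -0.03 in the authors' deposited table. E111 begins 10849 bases further on, and parts E081 to E110 were not analysed here. Within Ubr4's own parts, E152 (1620 bases) stood at 0.27 (adjusted p = 0.064), between exons E151 and E153, both at -0.13 and both called lower in the authors' deposited table. E155 (608 bases) stood at 0.07 (adjusted p = 0.84), between E154 at -0.16 and E156 at -0.18, also both called lower in the authors' deposited table. Both introns lay above 0 between exons that were lower, and neither intron was called. Huwe1 E120 stood at 0.07 and Herc1 E090 at 0.04 (adjusted p = 0.91 and 0.95), and their neighbours lay between -0.04 and -0.12 in the authors' deposited table. The 4 introns of the Emc1 end stood at 0.19, 0.27, -0.05 and 0.33 and were not called in the authors' deposited table. Over the 9 tested introns the median was 0.19, next to 0.18 over all 2609 tested detained introns. The 1 intronic polyadenylation part, Huwe1 E036, was not tested.

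**Figure D3:**
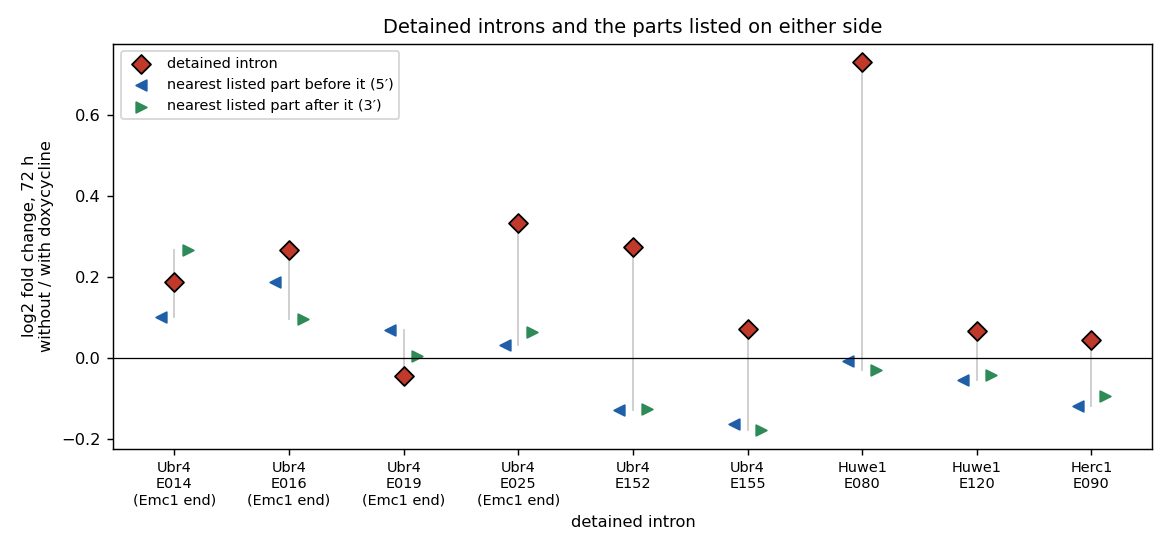
Log2 fold change at 72 h (without over with doxycycline, authors' values) of the 9 tested detained introns (red diamonds) and of the nearest listed parts before and after each (blue and green triangles); only Huwe1 E080 was called among the introns. In Ubr4 E152 and E155, Huwe1 E080 and E120 and Herc1 E090 the intron is above 0 and both neighbours are below 0, and E016 follows E014 and is itself an intron.

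Herc1, a HECT ligase with RCC1-like repeats, had no called part among 76 tested at 72 h and 20 tested at 48 h (chromosome 9, 66198258 to 66356587, plus strand). Its values at 72 h ran from -0.23 to 0.26, and the lowest DEXSeq-adjusted p was 0.34, at E009, in the authors' deposited table. The alternative first exon E001 stood at 0.09 and the terminal exon E095 at -0.05 in the authors' deposited table. Of 73 parts outside introns and cassette exons, the last 14 were all below 0, with a median of -0.06. At the 5′ end the unbroken run above 0 was only 6 parts long. The medians of the 5 bins were 0.03, 0.11, 0.05, 0.03 and -0.05. The cassette exons E003 and E047 stood at -0.05 and 0.02 in the authors' deposited table.

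Mycbp2 had no called part among 80 tested at 72 h and 5 at 48 h (chromosome 14, 103512625 to 103746017, minus strand, so that part numbers fall from the 5′ end). The parts of lowest adjusted p in each direction were named after their values were seen. Part E095, exon 3 of Mycbp2-201 (216 bases), stood at 0.43 (adjusted p = 0.071), and E022, exon 68, at -0.24 (adjusted p = 0.088), in the authors' deposited table. Both values are larger in size than those of most called parts of Ubr4 and Huwe1. The first exon E097 stood at 0.32 (adjusted p = 0.20) and the terminal exon E001 at -0.02 (adjusted p = 0.95) in the authors' deposited table. Of 75 parts outside introns and cassette exons, the first 23, E097 to E072, were all above 0. At the 3′ end the unbroken run below 0 was only 5 parts long (E006 to E001). The medians of the 5 bins were 0.18, 0.14, -0.0042, -0.01 and -0.04. The 5 tested cassette exons lay between -0.07 and 0.18 in the authors' deposited table.

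Herc2 had 16 parts in the table (chromosome 7, 63305673 to 63361902, plus strand), of which 13 matched exons of a transcript with 93 exons, so that only its 5′ portion was analysed here. Of these, 14 were tested at 72 h and none at 48 h, with no call and the lowest p at E003 (adjusted p = 0.39), which stood at -0.22 in the authors' deposited table. Its cassette exon E005 stood at -0.02 and the 3′-most listed part E019 at -0.08 in the authors' deposited table. Birc6 had only its first exon E001 (506 bases, chromosome 17, 74927636 to 74928141), which was not tested at either time.

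**Figure D4:**
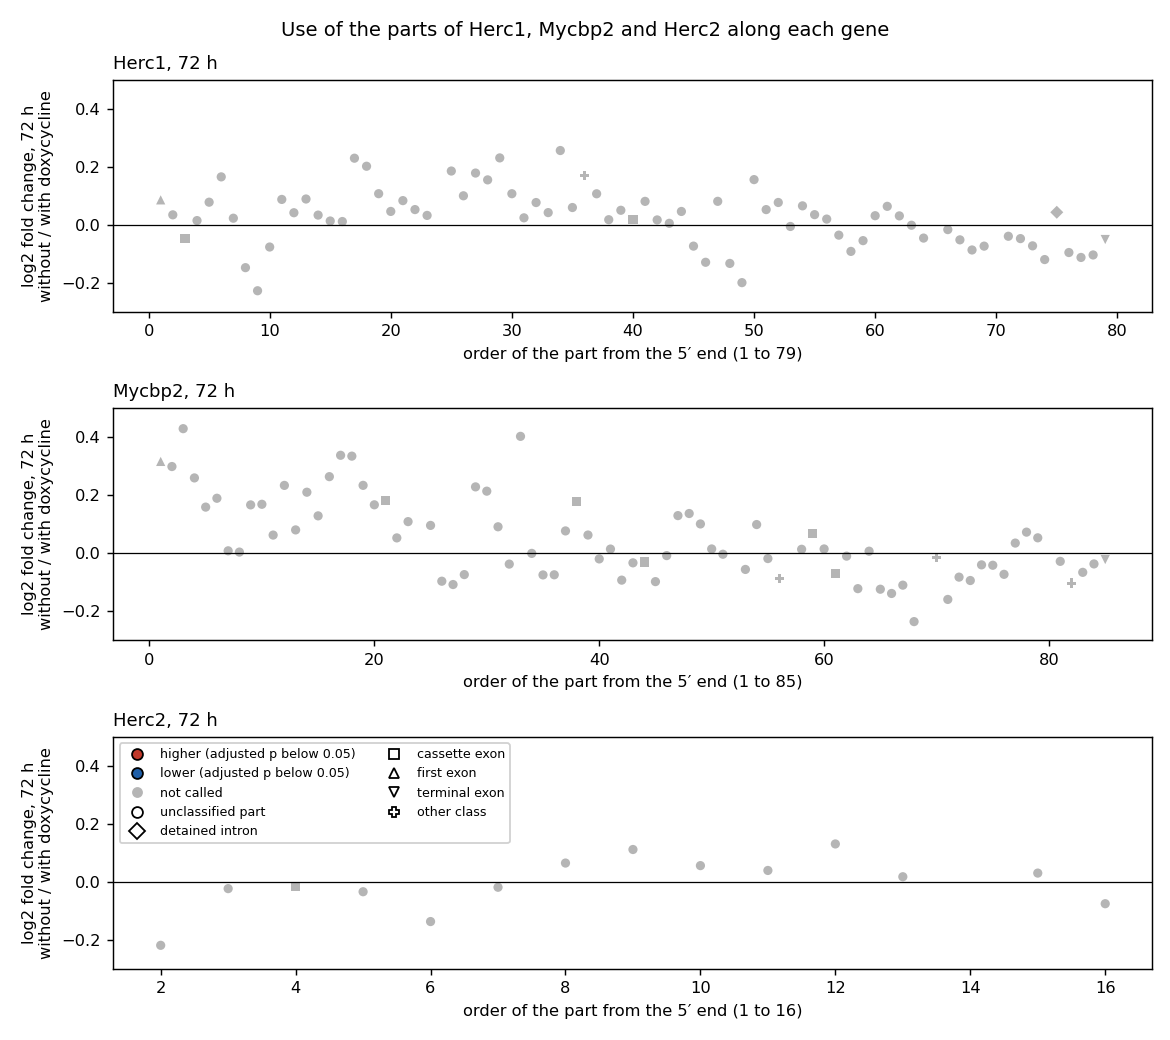
Log2 fold change at 72 h (without over with doxycycline, authors' values) of each tested part of Herc1 (top), Mycbp2 (middle) and Herc2 (bottom) in order from the 5′ end; each point is 1 part and its shape gives the class. No part of these 3 genes was called, and the Mycbp2 values reach 0.43 near the 5′ end and -0.24 toward the 3′ end.

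The difference between the 5′ and the 3′ side of a gene was set beside that of other genes, as a description. It was taken as the median log2 fold change of tested parts before the middle of the part order minus that after it. At 72 h it was 0.12 for Ubr4 (0.10 on the 5′ side and -0.02 on the 3′ side), 0.11 for Huwe1 (0.10 and -0.02), 0.10 for Herc1 (0.07 and -0.04) and 0.16 for Mycbp2 (0.13 and -0.03). With its own parts alone Ubr4 came to 0.13. Over the 1061 genes with at least 20 tested parts the median was 0.05 (quartiles 0.02 and 0.09), and 874 of them (82.4%) were above 0. The 4 genes thus lay above the upper quartile, and 85.8%, 82.3%, 80% and 92.6% of genes had a smaller difference than Ubr4, Huwe1, Herc1 and Mycbp2. The share for Ubr4 was taken with all parts under that name, the Emc1 end included. The middle by genomic position gave 0.03 for Herc1. Herc2, with 7 tested parts on each side of its listed portion, stood at -0.06. At 48 h the difference was 0.07 for Ubr4 (0.08 with its own parts alone) and 0.06 for Huwe1, next to a median of 0.04 over 236 genes. All 20 parts of Herc1 and all 5 of Mycbp2 tested at 48 h lay on the 3′ side, so no difference could be taken.

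**Figure D5:**
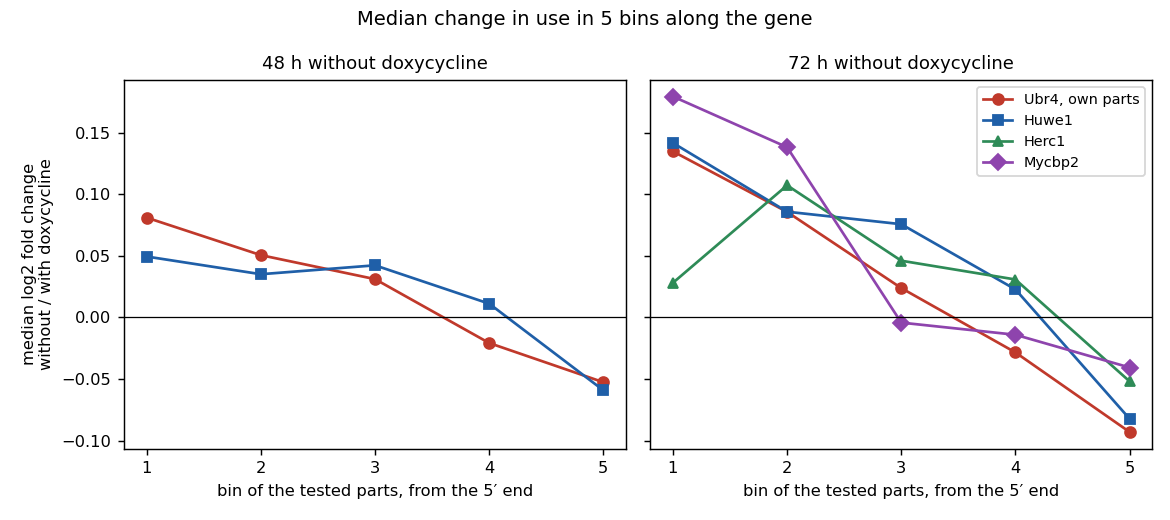
Median log2 fold change (without over with doxycycline, authors' values) in 5 bins of about equal numbers of tested parts from the 5′ end at 48 h (left) and 72 h (right); each point is the median over the parts of 1 bin of 1 gene, and Ubr4 is drawn without the Emc1 end. At 72 h the last bin is below 0 in all 4 genes drawn, from -0.04 in Mycbp2 to -0.09 in Ubr4, and Herc1 and Mycbp2 are left out at 48 h because their tested parts lie on the 3′ side.

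The genes with and without calls also differed in how many parts could be tested at 48 h. That share was 80.7% of Ubr4's own parts and 75.3% in Huwe1, next to 25.3% in Herc1, 5.88% in Mycbp2 and 0 of 16 parts in Herc2. Across the table, calls at 72 h made up 5.77% of parts with an adjusted p at both times, against 2.15% of those tested only at 72 h. Among Ubr4's own parts the calls at 72 h were 9 of 88 parts tested at both times (10.2%) and 3 of 13 tested only at 72 h (23.1%), and within Huwe1 they were 10 of 61 (16.4%) and 2 of 10 (20%). Why a part had no adjusted p is not given in the sources used here, and the part of sequencing depth in these calls was not tested. Of the 14 genes with at least 70 tested parts at 72 h, 4 had at least 12 called parts (Ubr4, Huwe1, Dync1h1 and Hspg2) and 5 had none, Herc1 and Mycbp2 among them. The cut of 12 equals the count of Huwe1, and Mdn1 and Macf1 came just below it with 11 and 10 called parts. Lrp1, Ryr1 and Lrp2 had 2, 2 and 1.

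Other genes of the ubiquitin relay were counted from written lists of gene names, against 19.1% of all tested genes with a called part at 72 h and 7.12% at 48 h. Genes with more parts have more chances of a call, and the lists were not matched for this: the median number of tested parts at 72 h was 7 over all tested genes. Among other HECT ligases, 7 of 18 tested genes had a called part at 72 h (38.9%, median 22.5 tested parts; higher parts in 5, lower parts in 4). Smurf2, a regulator of TGF-beta signalling, had a lower terminal exon (-0.12, adjusted p = 1.6e-06) and Smurf1 too (-0.39, adjusted p = 0.0025) in the authors' deposited table. Nedd4 had a higher first exon (0.12, adjusted p = 2.4e-05) in the authors' deposited table. A call at 48 h was made in 2 of 13 genes, among them the first exon of Nedd4, higher by 0.09 in the authors' deposited table.

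Among other large or N-degron ligases, 5 of 15 genes had a called part at 72 h (33.3%, median 28 tested parts; higher parts in 3, lower parts in 3). An internal part of Ubr3 was higher by 0.39 (adjusted p = 3.3e-04) and terminal exons of Brca1 (-0.097), of Rnf213 (-0.15), itself a giant ligase, and of Ubr7 (-0.05) were lower in the authors' deposited table. None of 11 had a call at 48 h. Of E1 and E2 enzymes, 7 of 32 had a called part at 72 h (21.9%, median 7 tested parts; higher parts in 5, lower parts in 2). Uba1, the main ubiquitin-activating enzyme, had a higher internal part (0.04, adjusted p = 0.0066), Ube2q2 a higher internal part (0.20), Ube2d1 a higher first exon (0.21) and Ube2q1 a lower terminal exon (-0.23, adjusted p = 3.0e-12) in the authors' deposited table. A call at 48 h was made in 2 of 29 E1 and E2 genes (6.9%). Over all tested genes the shares were 19.1% at 72 h and 7.12% at 48 h.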

How the data were processed

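Polyadenylated RNA of 12 libraries was compared by the authors. The only file is 1 table of their comparison, holding for each exon part and time a log2 fold change and its p-value after FDR adjustment, made with DEXSeq per the file headers. The submitters' processing notes name STAR 2.4.1d and the build mm9. The counting step, annotation, DEXSeq version and covariates were not given in these sources. Depth per library is therefore unknown, no interval is given and no p-value was recomputed.

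Rows were taken by gene name, ordered 5′ to 3′ by strand, and called at the authors' adjusted p below 0.05. Coordinates are the table's, on mm9, counted from 1. Parts were matched to GENCODE M21 exons by the longest common order of widths, and exon sequences were read from its transcripts. Scripts ran in Python 3.11.15 with pandas 2.3.3, and ordering, sides and matching were tested on simulated data. Other ubiquitin genes were matched by symbol or a single older name.

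The members and gene lists were chosen with earlier results of these data known. Named were all 7 genes, every called part of Ubr4 and Huwe1, in the other ligase genes any called part of lowest adjusted p in each direction (there was none), the end parts of each gene, all introns, first, terminal and cassette parts with a value, and, of each gene list, at most 4 genes, taken by adjusted p at 72 h and given by their part of lowest adjusted p. A gene and an exon sequence are not reported here. The labels call the 2 libraries of a clone and condition biological duplicates.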

Additional observations from a re-analysis of the deposited data

How the results depend on the processing

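The count of called parts at 72 h was 16 at an adjusted p below 0.01 and 40 below 0.1, against 25 as reported. At 48 h the single call was lost at an adjusted p below 0.01 and when log2 changes smaller than 0.1 in size were left out, with a count of 0 in both. With only 1 call at 48 h, the side on which calls lay could not vary there, and the other settings for 48 h calls say little. The other 19 alternative values at 72 h, among them unclassified parts only, other middles of the gene, a mean in place of a median, parts tested at both times, and the 2 settings chosen after seeing the data (without the Emc1 end, with 24 calls, and without Huwe1 E025, also 24), stayed within 1.5 times the reported value. The difference between the 5′ and 3′ side was a median of 0.11 over 5 genes at 72 h (0.09 to 0.11 under the alternatives that kept 5 genes). With only parts tested at both times it was 0.12, over 2 genes. At 48 h it was 0.07 over 2 genes (0.06 to 0.07 under the alternatives). Herc2 was below 0 at 72 h under each setting that left it a value. No paired analysis was possible because the table has no values per library. For the same reason leaving out replicates or a clone and other normalizations were not run. Depth is unknown.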

Other observations

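Among 24 tested partners and known substrates of the 7 ligases, 8 had a called part at 72 h (33.3%, against 19.1% of all tested genes). The median number of tested parts on this list was 8.5, against 7 over all tested genes. All 8 changed genes had a higher part and 1 had a lower part as well. Higher calls were also more frequent than lower calls over all tested parts at 72 h (2454 against 1347). The share of all changed genes with a higher part was not taken. The first exon of Mycn was higher by 0.07 (adjusted p = 0.0053), an internal part of Trp53 by 0.03 (adjusted p = 6.5e-04) and the terminal exon of Rae1 by 0.24 (adjusted p = 0.0066) in the authors' deposited table. Rnf8, the ligase that acts with Herc2 at DNA breaks, had 4 higher and 4 lower parts of 18 tested, and whether all rows under that name belong to 1 gene was not checked. At 48 h 5 of 24 had a call (20.8%, against 7.12% of all tested genes). Usp7, Usp20, Ube3a, Kcmf1 and Uba3 stand on another list as well.

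Among large deubiquitinases, which remove ubiquitin, 8 of 27 genes had a called part at 72 h (29.6%, against 19.1% of all tested genes). Their median number of tested parts was 18, against 7 over all tested genes. Higher parts were found in 6 and lower parts in 7 of these 8 genes. In 6 of the 8 the part of lowest adjusted p was a lower terminal exon. Usp4 stood at -0.49 (adjusted p = 2.0e-07), Usp19 at -0.29 (adjusted p = 9.97e-07) and Usp48 at -0.17 (adjusted p = 7.05e-05) there in the authors' deposited table, while the first exon of Usp28 was higher by 0.17 (adjusted p = 4.75e-05). At 48 h 3 of 24 had a call (12.5%, against 7.12% of all tested genes). A lower terminal exon was also the part of lowest adjusted p at 72 h in changed genes of other lists. This held for 3 of 7 other HECT ligases, 3 of 5 other large or N-degron ligases and 2 of 7 E1 and E2 enzymes. It held for 0 of 8 partners and substrates. Terminal exons of all genes were called more often than tested parts as a whole (8.83% against 3.6%). The share over all changed genes was not taken.

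The 4 parts nearest above the threshold at 72 h and the 2 nearest below it were as follows. Huwe1 E047 (0.11, adjusted p = 0.051), Huwe1 E125 (-0.08, 0.053), Ubr4 E038 (0.15, 0.053) and Huwe1 E049 (0.10, 0.055) stood just outside it, and Ubr4 E146 (-0.10, adjusted p = 0.049) and Huwe1 E067 (0.11, adjusted p = 0.046) just inside, in the authors' deposited table. By number of called parts at 72 h, only Fn1, with 17, exceeded the 13 under the name Ubr4, which Cnot1, Dido1, Dync1h1 and Hspg2 equalled.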
